A study of Mus musculus with 18 samples.

Results

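The microRNAs described here are mmu-miR-146a-5p, mmu-miR-146b-5p and mmu-miR-155-5p, the guide strands of the classic inflammatory microRNAs miR-146 and miR-155. They were chosen by name and are 3 of the 1251 microRNA entries in the mouse table. The samples came from female SKH-1E Hairless littermates, a line without a functional Hairless gene, which had all been exposed for weeks to solar simulated ultraviolet radiation and were killed after it had stopped, so that no unexposed skin is among the groups. Each of 6 mice (numbers 2, 3, 7, 8, 9 and 10) gave nonlesional chronically exposed skin (CHR), a papilloma (PAP) and a cutaneous squamous cell carcinoma (cuSCC), for 18 small RNA libraries and n = 6 of each type. Values are log2 ppm, where the study gave ppm as a fraction of the usable reads. The ppm values of each library sum to 2.35 to 2.36 times what shares of a single read total could reach. They are therefore not plain read shares, and ranks and ratios here refer to the values as given. An entry at the lowest value of the table, 3.32 (10 ppm), counted as undetected. Between 163 and 365 entries were detected per library, and the PAP of mouse 10 had the highest lower limit, with no detected value under 6.83. The test covered the 293 entries with a detected value in 6 or more libraries, among them miR-146a-5p and miR-146b-5p but not miR-155-5p. Because whole pieces of skin or tumour were sequenced, fewer cells of a type and less RNA per cell cannot be told apart in any of these values.

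Toll-like and interleukin-1 receptors signal through the kinase IRAK1 and the adaptor TRAF6 to the transcription factor NF-kB. NF-kB raises transcription of the miR-146a gene, and miR-146a in turn represses IRAK1 and TRAF6, which makes it a brake on the same signal. miR-155 is processed from the noncoding transcript of the Bic gene (Mir155hg), is induced in activated lymphocytes, macrophages and dendritic cells, and represses the inhibitors SOCS1 and SHIP1.

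The mature sequences are shown because the first pair differs so little that the levels of its members are not fully separable, and because the third has another seed. They are those of RefSeq on GRCm38.p6, 5′ to 3′, with the seed (bases 2 to 8) in capitals.
mmu-miR-146a-5p: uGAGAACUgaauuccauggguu
mmu-miR-146b-5p: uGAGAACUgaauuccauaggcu
mmu-miR-155-5p: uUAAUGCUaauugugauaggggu

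miR-146a-5p and miR-146b-5p had the seed GAGAACU in common and were identical at 20 of 22 positions. Counted from the 5′ end of miR-146a-5p, the substitutions to miR-146b-5p were G18A and U21C. No other mature mouse microRNA among the 1679 of the RefSeq table had this seed, and none besides miR-155-5p had the seed UAAUGCU. miR-146a-5p lies on chromosome 11 (GRCm38, chr11:43374435-43374456, minus strand), in a hairpin that GENCODE annotates only as a microRNA gene of its own. miR-146b-5p lies at chr19:46342790-46342811 on the plus strand, in an intron of the protein-coding gene Mfsd13a, transcribed in the same direction. miR-155-5p lies at chr16:84714143-84714165 on the plus strand, in an exon of the lincRNA gene Mir155hg. How reads that match both miR-146 entries were assigned is not given in the sources used here, so the split between them is uncertain.

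miR-155-5p stood at the lowest value of the table, 3.32, in all 18 libraries. No level, ratio or test can therefore be given for it in CHR, PAP or cuSCC. The values do not say whether it was absent or below what a library could detect. The lowest detected value of single libraries, above 10 ppm by definition, ran from 3.32 to 6.83. It reached 5.77 in CHR, 6.83 in PAP and 4.50 in cuSCC, so a level over 10 ppm could go undetected in some libraries. Its opposite arm, miR-155-3p, was likewise at 3.32 in all 18 libraries. Most entries shared this state, since 818 of the 1251 (65.4%) were detected in no library.

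The 3 mature sequences also differed in base composition, which is given here because it varied with detection over the table. G and C made up 34.8% of miR-155-5p and 40.9% of each of miR-146a-5p and miR-146b-5p. Of the 1001 entries matched to a RefSeq sequence, 70 had a GC share at or below that of miR-155-5p, and 6 of these (8.57%) passed the detection filter. Among the 931 entries with a higher GC share, 235 (25.2%) passed it. Of the 15 entries with exactly the GC share of miR-155-5p, 13 were detected in no library and 0 passed the filter. The part of base composition in the missing signal of miR-155-5p was not tested. In the plot of base composition against level, miR-155-5p lies on the line of the lowest value, while the miR-146 pair sits far above it.

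**Figure D1:**
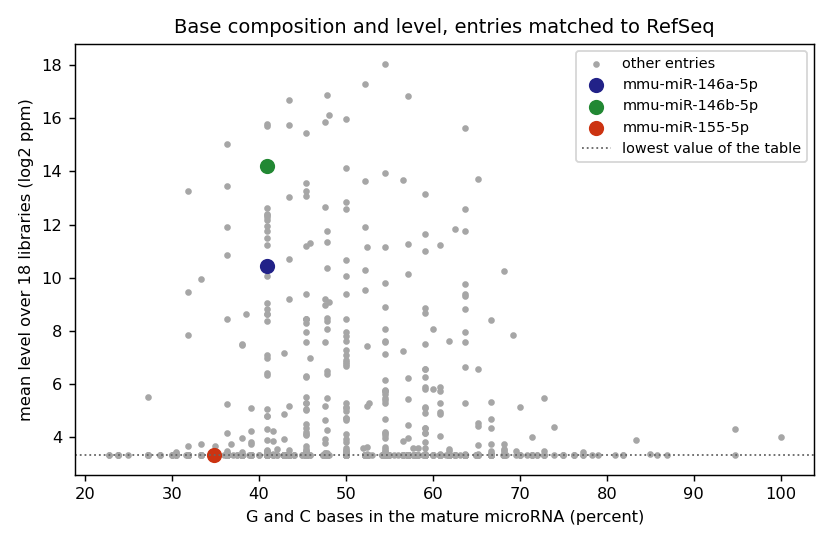
Mean level over the 18 libraries (log2 ppm) against the percent of G and C bases for the 1001 entries matched to RefSeq (grey points), with miR-146a-5p, miR-146b-5p and miR-155-5p in colour and the lowest value of the table as a dotted line. miR-155-5p lies at 34.8% on the dotted line, and both miR-146 members lie at 40.9%.

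miR-146a-5p was lower in PAP than in CHR, and in cuSCC 4 of 6 libraries lay in the range of CHR, with 1 below and 1 above it. In CHR its level ranged from 10.09 to 11.72 with a median of 11.19, in PAP from 7.59 to 10.19 with a median of 9.66, and in cuSCC from 9.31 to 12.12 with a median of 11.01 (log2 ppm). Of the PAP libraries, 5 of 6 lay below every CHR library, and the exception was mouse 2, whose PAP at 10.19 stood just above the CHR of mouse 10 at 10.09. Likewise 5 of 6 cuSCC libraries lay above every PAP library, while cuSCC and CHR overlapped widely. The lowest library of each type came from mouse 10, and its PAP, at 7.59, was the lowest of all 18.

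Means for miR-146a-5p were 11.04 ± 0.63 in CHR, 9.37 ± 0.94 in PAP and 10.95 ± 0.98 in cuSCC (log2 ppm, SD, n = 6 each). The difference between PAP and CHR was -1.67 on the log2 scale (SE 0.45, 95% interval -2.64 to -0.70), a 3.18-fold lower level (limma, adjusted p = 0.0146). Within mice, the PAP was lower than the CHR in 6 of 6 animals, by a median difference of -1.76 and a range from -2.49 to -0.29. The call was lost on leaving out mouse 3 (adjusted p = 0.0506) or mouse 8 (adjusted p = 0.0582), with the same direction in every case.

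miR-146b-5p was far more abundant and moved in the same direction with a smaller difference. In CHR its level ranged from 13.77 to 15.03 with a median of 14.61, in PAP from 12.87 to 14.61 with a median of 13.60, and in cuSCC from 12.83 to 15.82 with a median of 14.47 (log2 ppm). The groups overlapped more than for miR-146a-5p, as only 3 of 6 PAP libraries lay below every CHR library and 2 of 6 cuSCC libraries lay above every PAP library. The cuSCC libraries were the most spread, with the highest values of all in mice 8 and 7 (15.82 and 15.56) and the lowest of all in mouse 10 (12.83).

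Means for miR-146b-5p were 14.54 ± 0.44 in CHR, 13.60 ± 0.64 in PAP and 14.47 ± 1.13 in cuSCC (log2 ppm, SD, n = 6 each). PAP differed from CHR by -0.93 (log2, SE 0.33, 95% interval -1.65 to -0.22), a 1.91-fold lower level (limma, adjusted p = 0.0461). Within mice, the PAP was lower in 5 of 6 animals, and mouse 7 was the exception with a PAP higher by 0.17. This call was fragile, as it was lost with mouse as a replicate block (adjusted p = 0.0865), with all 3 sample types in one fit (adjusted p = 0.118), and without mouse 2, 3, 8, 9 or 10 (adjusted p from 0.0518 to 0.168).

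Thus, both testable members passed the threshold in PAP versus CHR, and both were lower. Of all 293 tested microRNAs, 32.4% passed in this comparison and 18.4% passed with a lower level in PAP, with a median difference of -0.23 over all tested. The plot of levels by sample type shows the dip of both miR-146 members in PAP and the flat line of miR-155-5p.

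**Figure D2:**
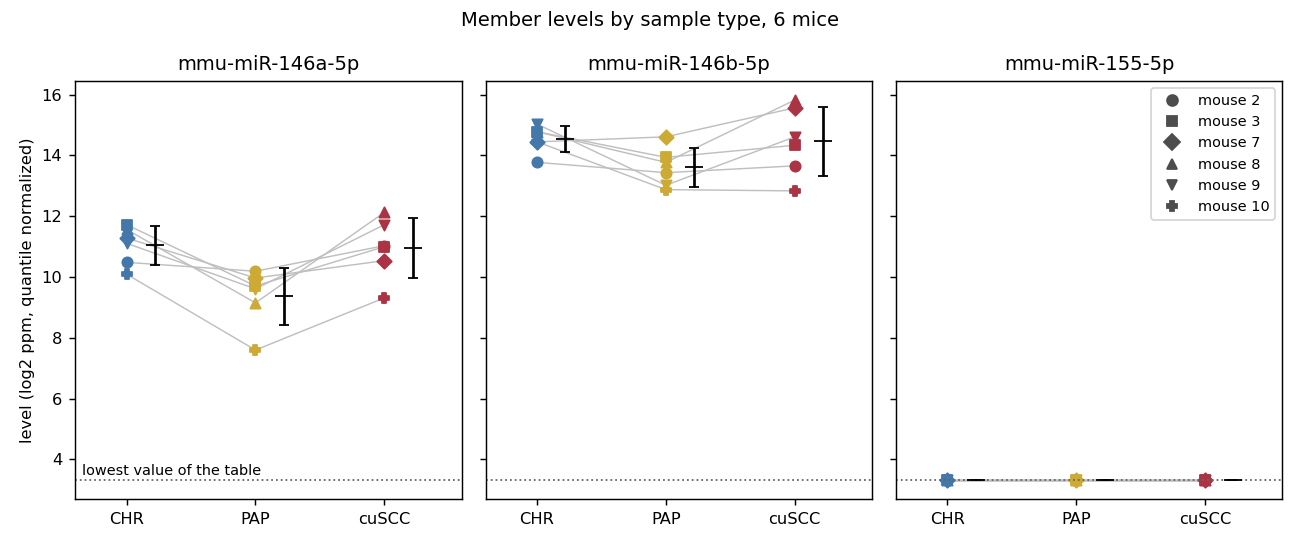
Levels of the 3 microRNAs (log2 ppm, quantile normalized) in CHR, PAP and cuSCC, with a symbol for each of the 6 mice, grey lines joining the samples of a mouse, and black marks for the mean ± SD. miR-146a-5p is lower in the PAP than in the CHR of 6 of 6 mice, miR-146b-5p in 5 of 6, and miR-155-5p stands at 3.32 throughout.

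Neither member differed in cuSCC relative to CHR beyond the spread between mice. For miR-146a-5p the difference was -0.09 (log2, SE 0.45, 95% interval -1.05 to 0.88; limma, adjusted p = 0.890), with the cuSCC higher in 3 mice and lower in 3. For miR-146b-5p it was -0.07 (log2, SE 0.46, 95% interval -1.06 to 0.92; limma, adjusted p = 0.905), with the cuSCC higher in 2 mice and lower in 4. The intervals allow a difference of about 1 on the log2 scale in either direction, and the sign of both differences turned without mouse 3 or mouse 10, as did that of miR-146a-5p without mouse 7 (without mouse 10 the differences were 0.05 and 0.24). Of the 2 testable members 0 passed with limma, also at an unadjusted p under 0.05, whereas 42.3% of all tested microRNAs passed in this comparison.

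From PAP to cuSCC both members had higher means. miR-146a-5p was higher in cuSCC by 1.58 (log2, SE 0.53, 95% interval 0.44 to 2.73), but it missed the threshold (limma, adjusted p = 0.0796). The cuSCC level exceeded the PAP level in 6 of 6 mice, by 0.57 to 2.98. With mouse as a replicate block the difference passed (adjusted p = 0.0435), as it did with all 3 sample types in one fit (adjusted p = 0.0327) and without mouse 10 (1.56, adjusted p = 0.0101). miR-146b-5p was higher by 0.86 (log2, SE 0.51, 95% interval -0.24 to 1.97; limma, adjusted p = 0.282), with a higher cuSCC in 5 of 6 mice. In this comparison 11.6% of all tested microRNAs passed, 9.22% with a higher level in cuSCC, and the 2 testable members were not among them. At the thresholds the study used, a fold of 1.5 and an unadjusted p under 0.05, miR-146a-5p passed (limma, unadjusted p = 0.0106), as did 28.3% of all tested microRNAs. The 3 comparisons share their samples, so the PAP libraries enter both the fall from CHR and the difference to cuSCC.

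**Figure D3:**
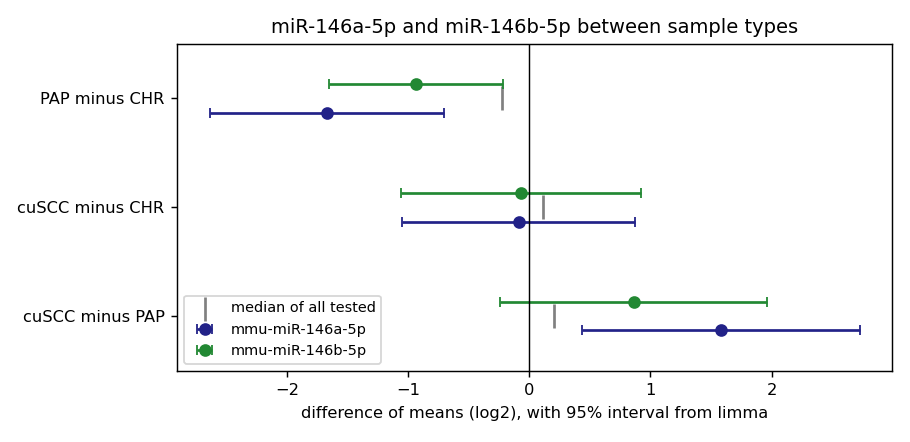
Differences of mean level (log2) between sample types for miR-146a-5p and miR-146b-5p, with 95% intervals from limma (n = 6 per type) and grey ticks for the median of all 293 tested microRNAs. The PAP minus CHR intervals lie below 0 for both, and the cuSCC minus CHR intervals are centred near 0.

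The miR-146 pair was among the better detected microRNAs of this skin. By mean level over the 18 libraries miR-146b-5p ranked 20 and miR-146a-5p ranked 73 of the 293 tested, and both were detected in every library. The miR-146b-5p value exceeded that of miR-146a-5p in every library, by 6.17-fold in the cuSCC of mouse 2 at the least and 38.8-fold in the PAP of mouse 10 at the most. The median ratio was 9.53 in CHR, 21.7 in PAP and 10.8 in cuSCC, with ranges that overlapped between all types. The share of miR-146a-5p in the summed pair was accordingly between 4.66 and 10.7% for CHR, between 2.52 and 9.55% for PAP and between 2.98 and 13.9% for cuSCC. The summed level of the pair lay between 13.91 and 15.12 in CHR, between 12.91 and 14.66 in PAP and between 12.95 and 15.93 in cuSCC (log2 ppm). Whether shared reads were split or counted at both entries is not known, so this sum may count some reads more than once. The sum was thus carried by miR-146b-5p, and it overlapped between the types.

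**Figure D4:**
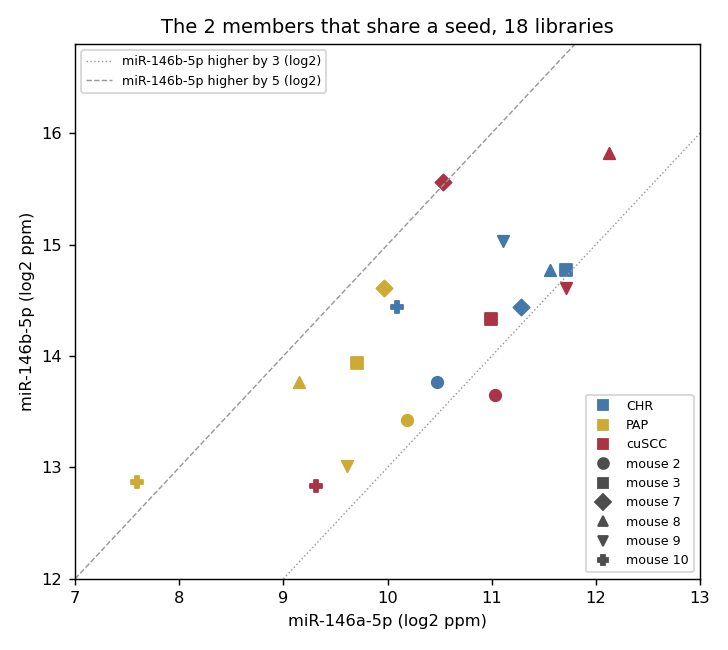
miR-146b-5p against miR-146a-5p (both log2 ppm) in the 18 libraries, coloured by sample type with a symbol for each mouse, and lines where miR-146b-5p is higher by 3 and by 5 on the log2 scale. The PAP and cuSCC of mouse 10 lie at the lower left, and the PAP of mouse 10 has the widest gap, 38.8-fold.

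The opposite arms of both hairpins were rare. miR-146a-3p was at 3.32 in all 18 libraries. miR-146b-3p was detected in 5 of 6 CHR libraries, at 3.63 to 5.50, in 0 of 6 PAP and in 2 of 6 cuSCC libraries, at 3.38 and 3.63. Its difference between PAP and CHR was -0.71 (log2) and did not pass (limma, adjusted p = 0.117), nor did that between cuSCC and CHR at -0.65 (adjusted p = 0.136). The lowest detected value of single PAP libraries ran from 3.71 to 6.83, so a level as low as that in CHR could go undetected there.

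Other microRNAs linked to NF-kB or Toll-like receptor signalling were read beside the members. Of the 9 on this list, 7 were tested, while miR-9-5p and miR-147-3p were each detected in 1 of 18 libraries. In PAP versus CHR, 1 rose, 1 fell and 5 did not pass, beside 32.4% of all tested microRNAs that passed. miR-31-5p, which is raised in wounded and psoriatic epidermis, rose by 3.21 (log2; limma, adjusted p = 4.89e-05). miR-181b-5p, an inhibitor of NF-kB signalling in endothelium, fell by 1.37 (adjusted p = 0.0304). In cuSCC versus CHR, 2 rose, 1 fell and 4 did not pass, beside 42.3% of all tested that passed. There miR-21a-5p, a microRNA raised in many carcinomas, rose by 2.94 (log2; limma, adjusted p = 3.73e-05) and miR-31-5p by 2.72 (adjusted p = 0.000189), whereas miR-125b-5p fell by 0.95 (adjusted p = 0.0325). Only miR-21a-5p rose between PAP and cuSCC, by 1.79 (adjusted p = 0.0383), beside 11.6% of all tested that passed. These shares of the list are near those of all tested microRNAs. The list's median difference was -0.40 in PAP versus CHR, 0.14 in cuSCC versus CHR and 0.89 in cuSCC versus PAP, beside medians over all tested of -0.23, 0.11 and 0.21. miR-132-3p, a target of CREB that is also induced by lipopolysaccharide in myeloid cells, had a difference of -1.26 in PAP versus CHR that did not pass (adjusted p = 0.197). It was undetected in the PAP of mouse 10, which entered that difference at 3.32 beside 7.07 to 8.41 in the other PAP libraries. miR-223-3p, the main microRNA of neutrophils and other myeloid cells, had differences of -2.05 and -0.12 to CHR in PAP and cuSCC (adjusted p = 0.190 and 0.875). It was detected in 4 of 6 PAP libraries, and its undetected values entered the PAP difference at 3.32. The counts of calls on this list were equal without mouse 10, a setting chosen after seeing the data.

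Leukocytes are the main home of miR-155 and strong expressors of miR-146a, so microRNAs taken as their markers were read beside the members. Of the 6 listed, 4 were tested. The 5p arm miR-142-5p was detected in 18 of 18 libraries, whereas miR-142-3p was detected in only 2 and miR-223-5p in 0. Their summed level ranged from 13.13 to 14.28 in CHR, from 9.06 to 11.83 in PAP and from 11.14 to 12.60 in cuSCC (log2). In CHR this sum was mostly miR-150-5p and miR-342-3p, with means of 12.45 each. The CHR means of miR-142-5p and miR-223-3p were 8.59 and 9.10, so the sum says little of these. In PAP versus CHR, 2 of 4 fell, beside 18.4% of all tested microRNAs. miR-150-5p, a microRNA of mature lymphocytes, fell by 2.62 (log2; limma, adjusted p = 0.000641), and miR-342-3p, also abundant in lymphocytes, fell by 3.66 (adjusted p = 0.0248). The PAP mean of miR-342-3p includes mouse 10, where it was undetected and entered at 3.32.

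In cuSCC versus CHR, 3 of the 4 passed, 2 lower and 1 higher, beside 42.3% of all tested microRNAs. Both lymphocyte microRNAs were lower in cuSCC too, where neither miR-146 member passed. miR-150-5p fell by 2.33 (log2; limma, adjusted p = 0.000927) and miR-342-3p fell by 2.86 (adjusted p = 0.000152), against -0.09 for miR-146a-5p. miR-142-5p, which is made throughout the blood lineages, rose by 1.53 in cuSCC versus CHR (adjusted p = 0.0132) and by 2.53 in cuSCC versus PAP (adjusted p = 0.00180). The list's median difference was -2.34 in PAP versus CHR, -1.23 in cuSCC versus CHR and 1.36 in cuSCC versus PAP, with undetected PAP values of miR-223-3p and miR-342-3p entering at 3.32. These counts were equal without mouse 10. The part of leukocyte content in the miR-146 values was not tested.

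Stromal and muscle microRNAs were read in the same way. Of the 4 taken as markers of fibroblasts and smooth muscle, all of them tested, 3 fell in PAP versus CHR, 1 fell in cuSCC versus CHR and 2 rose in cuSCC versus PAP. Over all tested microRNAs, 18.4% fell in PAP versus CHR, 42.3% passed in cuSCC versus CHR (65 of 293 lower) and 9.22% rose in cuSCC versus PAP. Their summed level (log2) lay between 14.26 and 15.01 in CHR, between 11.01 and 13.93 in PAP and between 12.49 and 15.40 in cuSCC, with the cuSCC of mouse 10 the lowest of its type. The largest part of this sum in CHR was miR-143-3p, with a mean of 13.60, while the others had means of 10.62 to 12.34. miR-143-3p, a microRNA of smooth muscle and fibroblasts, fell by 1.53 in PAP versus CHR (limma, adjusted p = 0.0125) and rose by 1.98 in cuSCC versus PAP (adjusted p = 0.0402). Of the 4 skeletal muscle microRNAs, 3 were tested, and miR-1a-3p was detected in 1 library. All 3 fell in PAP versus CHR and rose in cuSCC versus PAP, and 1 fell in cuSCC versus CHR. Summed levels lay between 15.44 and 15.98 in CHR, between 5.32 and 12.45 in PAP and between 6.04 and 14.24 in cuSCC. In CHR this sum was almost wholly miR-133a-3p, with a mean of 15.63 against 6.26 for miR-133b-3p and 6.54 for miR-206-3p. In PAP, miR-133b-3p and miR-206-3p were detected in 0 of 6 libraries and miR-133a-3p in 3. The sum of 5.32 is that of PAP libraries with 0 of the 4 detected. In CHR, miR-133b-3p and miR-206-3p lay at 5.32 to 7.52, while the lowest detected value of PAP libraries reached 6.83. The size of their fall is therefore uncertain. The 7 epithelial microRNAs had summed levels that overlapped between the types (CHR 17.50 to 18.51, PAP 17.77 to 18.55, cuSCC 17.50 to 18.54). This sum was almost wholly miR-205-5p, with means of 17.87 in CHR, 18.22 in PAP and 18.08 in cuSCC. The means of the others were at most 12.56, so the sum says little of them. Of the 7, 4 rose in PAP versus CHR with 0 falling, beside 41 of all 293 tested microRNAs that rose. In cuSCC versus CHR 3 rose and 0 fell, beside 59 of the 293 that rose. In cuSCC versus PAP 0 rose and 1 fell, beside 7 of the 293 that fell. Without mouse 10, the fibroblast and smooth muscle microRNAs that passed numbered 4 in PAP versus CHR, 2 in cuSCC versus CHR and 3 in cuSCC versus PAP, and the counts of the skeletal muscle and epithelial microRNAs were equal. The part of stromal, muscle and epithelial content in the miR-146 values was not tested.

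**Figure D5:**
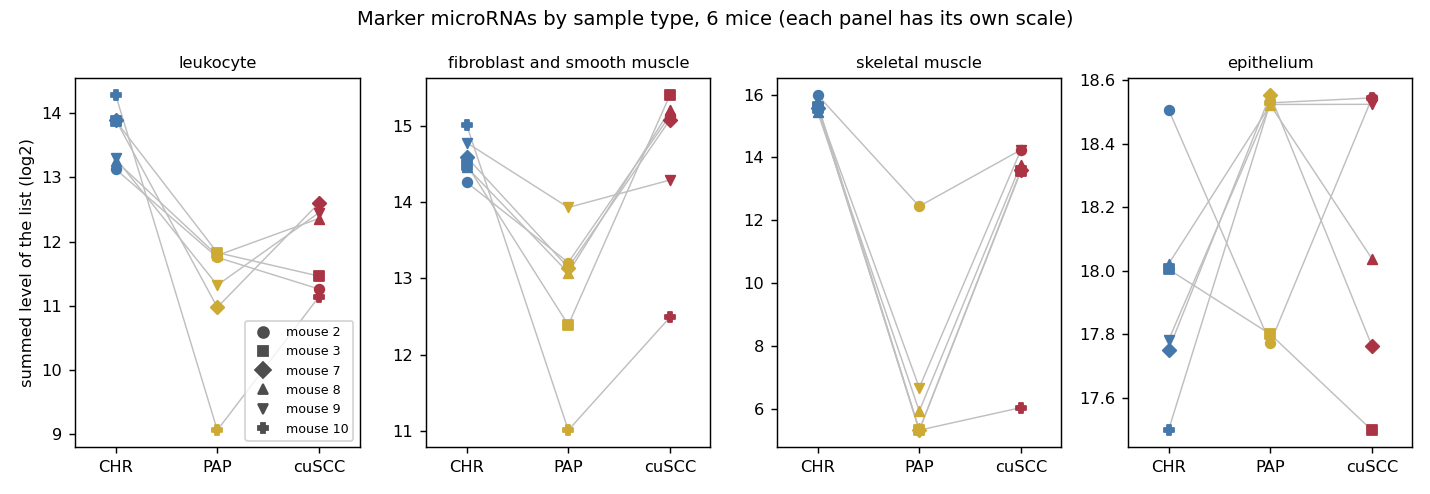
Summed levels (log2) of the leukocyte, fibroblast and smooth muscle, skeletal muscle and epithelial microRNAs in CHR, PAP and cuSCC, with a symbol and a grey line for each of the 6 mice and a scale of its own in each panel. The leukocyte sum stays below CHR in both PAP and cuSCC, while the fibroblast and skeletal muscle sums are low in PAP and mostly higher in cuSCC.

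The microRNAs whose levels followed miR-146a-5p most closely were sought over the 18 libraries after subtracting the mean of each sample type. This leaves the variation between libraries of the same type. They were miR-181a-5p (r = 0.79), miR-181b-5p (r = 0.75), miR-199a-5p (r = 0.73), miR-132-3p (r = 0.69) and miR-214-3p (r = 0.68). The same measure over the values as deposited was 0.83, 0.80, 0.83, 0.77 and 0.74. Closest to miR-146b-5p were miR-221-5p (r = 0.74), miR-191-5p (r = 0.68), miR-326-3p (r = 0.67), miR-700-5p (r = 0.63) and miR-146a-5p itself (r = 0.62). The values as deposited gave 0.78, 0.59, 0.56, 0.63 and 0.73. The median over all tested microRNAs was 0.072 for miR-146a-5p and 0.036 for miR-146b-5p. Among the leukocyte microRNAs, r with miR-146a-5p was 0.55 for miR-342-3p, 0.49 for miR-223-3p, 0.38 for miR-150-5p and 0.10 for miR-142-5p. With miR-146b-5p it was 0.51 for miR-150-5p, 0.35 for miR-342-3p, 0.32 for miR-142-5p and 0.25 for miR-223-3p. The fibroblast and smooth muscle microRNAs miR-214-3p, miR-143-3p, miR-199a-3p and miR-145a-5p had 0.68, 0.68, 0.61 and 0.34 with miR-146a-5p. With miR-146b-5p they had 0.42, 0.53, 0.43 and 0.36. These correlations are descriptions over 18 points that share mice, library preparation and a joint normalization, and the low PAP and cuSCC of mouse 10 enter each of them. Undetected values entered at 3.32. Among them were miR-132-3p, miR-214-3p and miR-342-3p in the PAP of mouse 10, the lowest library for miR-146a-5p. miR-223-3p was undetected in the PAP of mice 7 and 10, and miR-326-3p and miR-700-5p were each detected in 14 libraries. The part of undetected values in these correlations was not tested.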

How the data were processed

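The 18 mouse libraries were used, grouped by sample type from their labels. The authors trimmed adapters, discarded short and homopolymer-ending reads, used BLAST to map the others to miRBase and gave each microRNA as ppm of usable reads. The labels name mm10. The deposited values are log2 ppm. As ppm they sum to almost the same total in every library, and as log2 they are never under 3.32. Quantile normalization and a lowest value of 10 ppm were therefore read from the values. The total is 2.35 to 2.36 times what shares of a single read total could reach, and the cause was not tested. Read totals were not used and the depth behind a value is unknown, so no counting error is given.

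Entries detected in at least 6 of 18 libraries were tested with limma 3.58.1 in R 4.3.3 (lmFit, eBayes, 6 against 6 libraries, two-sided, no block), with Benjamini-Hochberg adjustment over all 293 and a threshold of 0.05. The procedure was tested on simulated data. Lists, alignments of sequences and plots used Python 3.11.15, numpy 2.4.6, pandas 2.3.3 and matplotlib 3.10.9. Hairpins were placed with GENCODE M21 on GRCm38. The members, the named microRNAs (members, opposite arms, entries with a member's seed, listed markers and the 5 entries most like each member) and the lists were chosen with earlier results of these data known.

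Library numbers are mouse numbers and pair the samples, as the same animal gave each type. Deviations of the same mouse from the group means correlated at -0.28 to 0.40 over 18 pairs, over 0.1 in 5. Alternatives were other filters, one fit of all 3 types, mouse as a replicate block, centring of each library, other treatments of undetected values, an exact permutation test, a fold threshold and leaving out each mouse. Results without mouse 10 for the lists were added after seeing the data.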

Additional observations from a re-analysis of the deposited data

Results flagged for a closer look

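Among 64 sets of 6 libraries examined (the members, opposite arms, NF-kB and leukocyte microRNAs that were among the 293 tested, the summed levels and the difference between the miR-146 members, in each sample type where the values varied), 12 had a library set apart from the other 5 by a gap that took up most of the range (Dixon's test at 95%). For normally distributed values, chance gives such a gap in about 1 in 20 sets. That rate does not hold for sets with several undetected values, such as miR-146b-3p in cuSCC, which was detected in 2 of 6 libraries. The sets also share libraries. None of the 12 was a level of miR-146a-5p, miR-146b-5p or their sum.

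Of the 12, 7 came from mouse 10. Its PAP was the lowest for miR-132-3p and miR-342-3p (both at 3.32, undetected), for miR-181b-5p (8.91) and for the summed leukocyte microRNAs (9.06). Its cuSCC was the lowest for the summed skeletal muscle microRNAs (6.04) and the highest for the summed erythroid microRNAs (17.87), and its CHR was the highest for miR-125b-5p (15.56).

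The other 5 were miR-146b-3p in the CHR of mouse 3 (5.50, the highest) and in the cuSCC of mouse 9 (3.63, the highest), miR-301a-3p in the CHR of mouse 9 (4.76, the highest), miR-150-5p in the CHR of mouse 9 (11.67, the lowest) and the summed skeletal muscle microRNAs in the PAP of mouse 2 (12.45, the highest). All values are log2 ppm.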

How the results depend on the processing

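miR-155-5p had no variation and hence no value under any alternative. The lower miR-146a-5p in PAP versus CHR passed under the other filters, scalings, treatments of undetected values, the replicate block and the fit of all 3 types (adjusted p from 0.00893 to 0.0310), and its difference ran from -1.95 to -1.51 without single mice. For miR-146b-5p in PAP versus CHR the difference stayed at -0.93 but did not pass with no filter (adjusted p = 0.0618), all 3 types in one fit (0.118), the replicate block (0.0865) or undetected values at the lowest detected value (0.0503), and ran from -1.15 to -0.72 without single mice. For miR-146a-5p in cuSCC versus PAP the difference of 1.58 passed with the replicate block (adjusted p = 0.0435), all 3 types in one fit (0.0327), undetected values at the lowest detected value (0.0351), the exact permutation test (unadjusted p = 0.0152) and the fold threshold (unadjusted p = 0.0106), and ran from 1.31 to 1.79 without single mice. In cuSCC versus CHR, leaving out single mice moved miR-146a-5p from -0.23 to 0.052 and miR-146b-5p from -0.31 to 0.24, and neither passed. The replicate block changed no other call of the members.

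Counts over all tested microRNAs depended more on the processing. Without single mice, 55 to 79 passed in PAP versus CHR (95 with all mice; 55 without mouse 3, 59 without mouse 7) and 77 to 129 in cuSCC versus CHR (124; 77 without mouse 3). In cuSCC versus PAP 34 passed, against 2 with no filter, 80 with undetected values at the lowest detected value, 21 with values raised to 100 ppm, 83 at the fold threshold, and 1 to 59 without single mice (9 without mouse 2 or 9, 1 without mouse 3, 7 or 8, 59 without mouse 10). The causes were not tested. Depth is unknown, and each library's lowest detected value limits what can be said of low microRNAs such as miR-155-5p and miR-146b-3p.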

Other observations

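Of the endothelial microRNAs miR-126-3p and miR-126-5p, neither passed in PAP versus CHR (median difference -0.64, log2), and both rose in cuSCC, with a median of 1.57 against CHR and 2.22 against PAP (limma, 2 of 2 in each, beside 42.3% and 11.6% of all tested microRNAs that passed). Their summed level reached at most 9.35 in CHR and lay between 9.26 and 11.17 in cuSCC. Of the 3 erythroid microRNAs 2 were tested, and miR-144-3p was detected in 0 of 18 libraries. miR-451a rose by 4.78 in PAP versus CHR (log2; limma, adjusted p = 0.00106) and by 3.99 in cuSCC versus CHR (adjusted p = 0.000747). miR-486-5p differed by 0.55 in PAP versus CHR (adjusted p = 0.208), and fell by 1.27 in cuSCC versus CHR (adjusted p = 0.0325) and fell by 1.83 in cuSCC versus PAP (adjusted p = 0.0394). Within sample types, over 18 libraries, miR-451a had r = -0.60 with miR-146a-5p and -0.56 with miR-146b-5p, and miR-486-5p had r = -0.48 and -0.70.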
